A study of Mus musculus with 18 samples.

Results

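The Notch receptors, ligands and targets are described here through 10 genes, namely the receptors Notch1, Notch2, Notch3 and Notch4, the ligands Jag1, Jag2 and Dll4, and the target genes Hes1, Hey1 and Heyl. They were taken by name: every probe whose gene name on the array equals one of the 10 was used, which gave 15 probes of 41174, for 10 of 27962 gene names. All 15 probes were well above background in the sample channel on at least 3 of the 18 arrays and entered the tests. For 8 members the probe used was well above background on every array, and the exceptions were Jag2 and Dll4. The cells came from thyroids of C57BL/6 mice of both sexes that were digested with collagenase and dispase, held in culture for 2 days and sorted by flow cytometry after staining with the DNA dye Hoechst 33342. Side population cells keep this dye out through membrane pumps, a property judged with verapamil, which blocks such pumps, and the remaining cells formed the main population. The 4 groups were side population after partial thyroidectomy (TSP, 6 arrays), side population without surgery (CSP, 6), main population after partial thyroidectomy (TMP, 3) and main population without surgery (CMP, 3). All groups share the strain, the culture step and the dye staining, so none shows freshly isolated cells. Each sample, labelled with Cy5, was hybridised together with a Cy3-labelled commercial RNA mixture of several Swiss Webster mouse tissues, and every value below is a log2 ratio of sample over this mixture. Such a ratio compares groups for one gene and gives no level of one gene against another.

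Some arrays went against their labels. Over 19987 genes TSP 1 and TSP 2 had a median r of 0.949 against the CMP and TMP arrays and of 0.695 against the remaining 10 side population arrays, which had 0.874 among themselves and 0.680 against CMP and TMP. Genes are not independent replicates in these values. Both arrays stay in their labelled group, and results that rest on them are given with and without them; leaving them out followed from their profiles and is no independent evidence. The labelled tissue is visible in the main population: 7 of 8 tested thyroid follicular genes were well above background on all CMP arrays and on all TMP arrays. None of the 8 was well above background on all TSP arrays or on all CSP arrays. On single arrays the follicular signal was not absent: TSP 1, TSP 2 and CSP 6 had 7 well above background, and CSP 4 and TSP 3 had 5. The mean log2 ratio of the 8 was 1.57 on CSP 6, against 2.49 to 3.14 on CMP arrays. Per array, 38.8% to 72.0% of spots were well above background in the sample channel; precision is limited by how many arrays each group has. There were 5 slides. Slide 4 alone held both CSP (2 arrays) and CMP (1 array), and slide 5 alone held both TSP (2 arrays) and TMP (1 array). Differences within slide 4 or slide 5 thus rest on 1 CMP or 1 TMP array, which is also part of the main fit.

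Notch signalling works by contact between neighbouring cells. A ligand of the Jagged or Delta-like family on one cell binds a Notch receptor on the next, proteases release the inner part of the receptor, and this part joins the DNA-binding protein RBPJ and coactivators of the Mastermind family to switch on repressor genes of the Hes and Hey families. In blood vessels, which wrap the thyroid follicles densely, Notch1, Notch4 and Dll4 are known from endothelial cells and Notch3 and Heyl from smooth muscle cells and pericytes.

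The upstream sequences of Notch3, Notch4 and Dll4 are shown first, because these are the receptors and the ligand whose CSP values all lay above their CMP values; Notch3 and Notch4 passed the test described below and Dll4 did not with all arrays. RefSeq promoter sequences (build GRCm38.p6) matched 7 of the 10 members; Hes1, Hey1 and Heyl were not matched. The 250 bases before the start were searched on both strands for TGGGAA (the core bound by RBPJ), CACGTG (an E-box, bound by Hey proteins) and CACNAG (an N-box, bound by Hes proteins), and matches are in capitals. Each sequence is written 5′ to 3′ along the strand of its gene.
Notch3, chr17:32166891-32167140, minus strand: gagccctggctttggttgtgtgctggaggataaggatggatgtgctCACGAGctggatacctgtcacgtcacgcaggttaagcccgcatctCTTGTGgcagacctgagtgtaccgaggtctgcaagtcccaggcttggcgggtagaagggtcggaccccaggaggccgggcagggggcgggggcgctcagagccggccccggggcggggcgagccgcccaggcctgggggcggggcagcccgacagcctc
Notch4, chr17:34564045-34564294, plus strand: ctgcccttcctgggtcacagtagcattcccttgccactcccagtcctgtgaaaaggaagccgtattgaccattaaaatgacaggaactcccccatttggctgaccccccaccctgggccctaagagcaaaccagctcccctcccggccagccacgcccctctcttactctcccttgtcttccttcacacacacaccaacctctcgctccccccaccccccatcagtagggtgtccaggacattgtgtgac
Dll4, chr2:119325534-119325783, plus strand: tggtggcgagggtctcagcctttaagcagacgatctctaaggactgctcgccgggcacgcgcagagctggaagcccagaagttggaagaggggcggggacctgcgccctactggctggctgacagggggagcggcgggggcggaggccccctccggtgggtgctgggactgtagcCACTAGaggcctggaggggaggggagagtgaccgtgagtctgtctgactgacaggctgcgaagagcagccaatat

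Notch3 held 2 CACNAG matches, with their first base 204 and 159 bases before the start, Dll4 held 1 at 75 bases, and Notch4 held none. Among the other matched members, Notch1 and Notch2 held 1 CACNAG match each and Jag1 and Jag2 none. Neither TGGGAA nor CACGTG occurred in any of the 7 windows. Of 32851 promoters of this length 36.7% held CACNAG, 21.6% TGGGAA and 6.02% CACGTG, so a CACNAG match is common anywhere. The windows also differed in composition: that of Notch4 held 4 CpG dinucleotides and 58.4% G and C, that of Notch3 17 and 68.8%, and that of Dll4 14 and 65.6%.

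The comparison of CSP with CMP asks how both populations differ when no surgery was done. CSP had higher Notch3 (3.85-fold), Notch4 (4.53-fold), Hey1 (6.84-fold) and Heyl (5.62-fold). The other 6 members did not pass the test. Thus 2 of the 4 receptors and 2 of the 3 targets rose and none of the 3 ligands did, although Dll4 stood higher on every CSP array than on any CMP array. With Notch3, Notch4, Hey1 and Heyl it made 5 of 10 members whose CSP values all lay above their CMP values, as did 11.1% of genes. That is 4 of 10 members higher and 0 lower, where 7.61% of the 20455 genes tested were called higher, 7.25% lower and 14.9% in either direction (limma, Benjamini-Hochberg adjusted p under 0.05). The members and the pathway and marker lists below were chosen with earlier results of these data known. Shares of all genes set beside their counts are therefore a description and no test of the lists. The median difference over the 10 members was 1.02 on the log2 scale, against 0.06 over all genes. With median centring in place of loess, 855 genes were called higher and 1772 lower, against 1557 and 1482, and the median of all genes moved to -0.08; 4 members were called, where 12.8% of genes were. Scaling between arrays after loess ended all 4 calls (adjusted p 0.115 to 0.374), and 2.19% of genes were called. In sorted bulk cells, fewer cells of a type and less RNA per cell cannot be told apart. Without TSP 1 and TSP 2, whose values enter the spread that all groups share, Dll4 also passed, giving 5 of 10, where 10.2% of genes were called higher, 9.06% lower and 19.3% in either direction. With all other arrays kept, 1 member was called without CMP 1 (5.62% of genes called), none without CMP 2 (2.8%) and 2 without CMP 3 (10.3%), with differences of 1.70 to 2.99 for the calls lost; once TSP 1 and TSP 2 were left out too, all 4 stayed called whichever single array was removed.

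**Figure D1:**
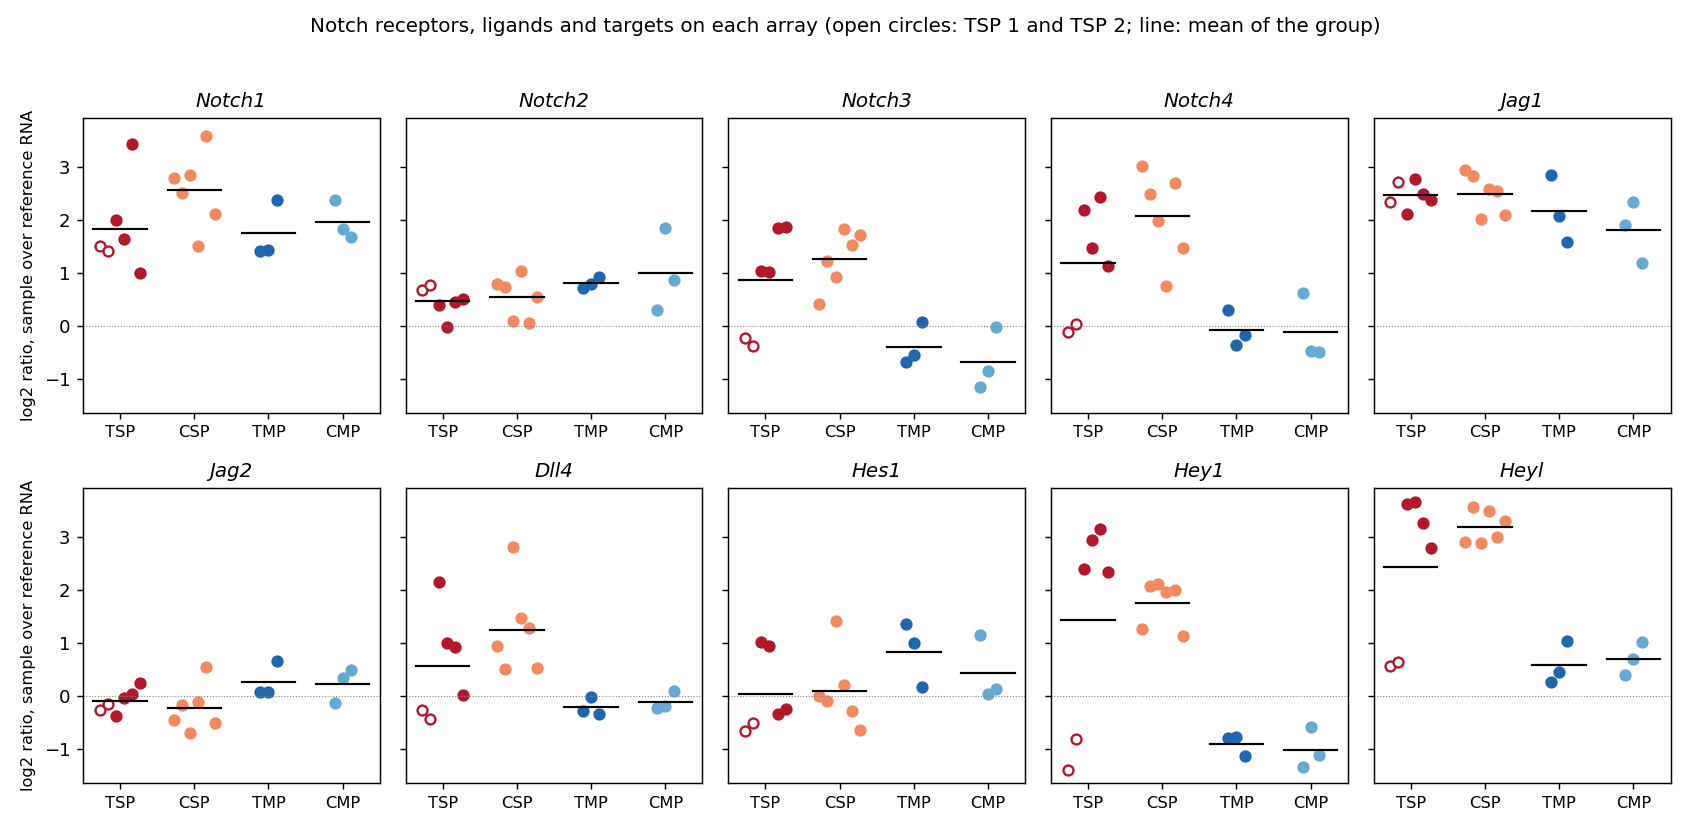
Log2 ratio of sample over reference RNA (vertical axis) of the 10 members on each array, for TSP, CSP, TMP and CMP (horizontal axis); lines are group means and open circles are TSP 1 and TSP 2. Hey1 and Heyl on TSP 3 to TSP 6 and on all CSP arrays lie above all main population arrays, while Notch2, Jag1, Jag2 and Hes1 overlap between populations.

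Among the receptors, Notch3, known for its role in vascular smooth muscle, had log2 ratios of -0.23 and -0.37 on TSP 1 and TSP 2 and of 1.03, 1.02, 1.86 and 1.87 on TSP 3 to TSP 6. On CSP arrays Notch3 ranged from 0.41 to 1.83 with a median of 1.37. TMP arrays gave -0.69, -0.56 and 0.07, and CMP arrays gave -1.15, -0.84 and -0.02. All CSP arrays and TSP 3 to TSP 6 were therefore above every main population array, and TSP 1 and TSP 2 fell among the main population arrays. The CSP mean of 1.27 ± 0.54 (SD, n = 6) exceeded the CMP mean of -0.67 ± 0.58 (n = 3) by 1.94 ± 0.47 (SE), with an adjusted p of 0.0117 (limma), and the slide block gave 2.56 and slide 4 alone 2.47. The annotated position of its probe was chr17:30311822-30311881 on build mm7, minus strand, and all probe positions below are of this build.

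Notch4, a receptor described mainly in endothelium, had log2 ratios of -0.12 and 0.03 on TSP 1 and TSP 2 and of 2.18, 1.47, 2.43 and 1.14 on TSP 3 to TSP 6. Its CSP values ran from 0.76 to 3.01 with a median of 2.24. TMP arrays gave 0.29, -0.36 and -0.18, and CMP arrays 0.63, -0.47 and -0.49. The lowest CSP array, CSP 4, lay just above the highest CMP array, CMP 1, so the groups did not overlap but came close. The CSP mean was 2.07 ± 0.84 (SD, n = 6) and the CMP mean -0.11 ± 0.64 (n = 3), a difference of 2.18 ± 0.55 (SE) with an adjusted p of 0.0138 (limma). The slide block gave 2.83 and slide 4 alone 2.56. The Notch4 probe lay at chr17:32669395-32669454, plus strand.

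Notch1 and Notch2 did not separate the populations. Notch1, the receptor best known from lymphocyte and vessel development, was read by 10 spots on each array, whose log2 ratios differed within an array with a median SD of 0.15 (range 0.06 to 0.39). Its TSP values ranged from 0.99 to 3.44 with a median of 1.57 and its CSP values from 1.51 to 3.58 with a median of 2.65. The TMP arrays gave 1.42, 1.43 and 2.38 and the CMP arrays 2.37, 1.83 and 1.68, inside the TSP range and overlapping the CSP range. The SD between arrays of a group, 0.36 to 0.85, was larger than the median SD between spots. The difference of CSP from CMP was 0.59 with a 95% interval of -0.37 to 1.56 and an adjusted p of 0.427 (limma).

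A further Notch1 probe, whose start lay 58 bases away, gave a difference of 0.89 with an adjusted p over all probes of 0.291 (limma; it has no value on TSP 5). Notch2, a widely expressed receptor, ranged from -0.02 to 0.78 on TSP arrays, from 0.06 to 1.03 on CSP arrays, from 0.72 to 0.92 on TMP arrays and from 0.31 to 1.85 on CMP arrays. It was lower in CSP than in CMP by a log2 value of -0.47, with a 95% interval of -1.09 to 0.15 and an adjusted p of 0.318. Its other 2 probes gave -0.19 and -0.28, so all 3 Notch2 probes pointed the same way and none passed the test.

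The ligand Dll4, a Delta-like protein of sprouting and arterial endothelium, had log2 ratios of -0.26 and -0.44 on TSP 1 and TSP 2 and of 2.16, 1.00, 0.93 and 0.03 on TSP 3 to TSP 6. CSP arrays ranged from 0.51 to 2.81 with a median of 1.11. The TMP arrays gave -0.29, -0.02 and -0.34 and the CMP arrays -0.23, -0.20 and 0.10. Dll4 was well above background on 2 of 6 TSP, 5 of 6 CSP, 2 of 3 TMP and 2 of 3 CMP arrays, so its low values are less certain than those of the other members. The difference of CSP from CMP was 1.36 ± 0.51 (SE), with an adjusted p of 0.0766 with all arrays and 0.0407 without TSP 1 and TSP 2 (limma). It did not pass under the slide block, where the difference was 1.12 and the adjusted p 0.0570. Slide 4 alone gave 1.101. Its highest values were 2.81 on CSP 3 and 2.16 on TSP 3, which share slide 3.

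Jag1, a Jagged ligand, was high against the reference on every array by its brighter probe, but not by its other probe. The brighter probe ranged from 2.11 to 2.78 on TSP arrays, from 2.01 to 2.94 on CSP arrays, from 1.59 to 2.84 on TMP arrays and from 1.19 to 2.34 on CMP arrays. The difference of CSP from CMP was 0.68 with an adjusted p of 0.133, and within slide 4 it was -0.03. Its other probe, from a stretch that starts 1509 bases away, gave 0.46 with an adjusted p over all probes of 0.555 (limma). That probe was well above background on 3 of 6 TSP, 4 of 6 CSP, 2 of 3 TMP and 2 of 3 CMP arrays. Its group means were 0.65 in TSP, 0.77 in CSP, 0.71 in TMP and 0.32 in CMP, and its lowest value was -0.07, on TSP 5.

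Jag2, the other Jagged ligand, stayed near the reference, from -0.37 to 0.24 on TSP arrays and from -0.70 to 0.55 on CSP arrays, against 0.07 to 0.66 on TMP arrays and -0.13 to 0.48 on CMP arrays. The CSP difference from CMP was -0.46, with a 95% interval of -0.998 to 0.08 and an adjusted p of 0.256. Its probe was placed on chr12_random, a sequence of chromosome 12 without a fixed position in mm7, at 2920858 to 2920917.

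Among the targets, Hey1 and Heyl had the largest differences of the 10 members. Hey1, a basic helix-loop-helix repressor that Notch signalling switches on in vessels and elsewhere, had log2 ratios of -1.39 and -0.81 on TSP 1 and TSP 2 and of 2.40, 2.94, 3.16 and 2.34 on TSP 3 to TSP 6. CSP arrays ranged from 1.14 to 2.12 with a median of 1.98. TMP arrays gave -0.78, -0.78 and -1.12 and CMP arrays -1.33, -0.58 and -1.12. The main population was thus below the reference RNA on every array and the side population, apart from TSP 1 and TSP 2, above it on every array. CSP averaged 1.76 ± 0.44 (SD, n = 6) and CMP -1.01 ± 0.39 (n = 3), a difference of 2.77 ± 0.78 (SE) with an adjusted p of 0.0230 (limma). Without TSP 1 and TSP 2 the SE was 0.28 and the adjusted p 2.66e-06. The slide block gave 3.38 and slide 4 alone 2.15.

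Heyl, the related repressor known from vascular smooth muscle, was read by 2 probes that start 1487 bases apart. Its brighter probe had log2 ratios of 0.58 and 0.65 on TSP 1 and TSP 2 and of 3.62, 3.67, 3.26 and 2.80 on TSP 3 to TSP 6. On CSP arrays the values ranged from 2.88 to 3.57 with a median of 3.15. TMP arrays gave 0.27, 0.45 and 1.05 and CMP arrays 0.39, 0.70 and 1.02. CSP averaged 3.19 ± 0.30 (SD, n = 6) and CMP 0.70 ± 0.32 (n = 3), a difference of 2.49 ± 0.58 (SE) with an adjusted p of 0.0103 (limma). The slide block gave 2.72 and slide 4 alone 2.45. The second probe gave CSP values of 2.87 to 4.12 against CMP values of 0.96 to 1.36, a difference of 2.42 with an adjusted p over all probes of 0.00919 (limma), where 13.2% of the 29803 probes were called. Both probes of Heyl thus passed the test, with folds of 5.62 and 5.35.

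Hes1, the Hes family repressor used most often as a readout of Notch, overlapped between the populations. Its probe is shown because it is the only one for Hes1 and its 60 bases are spread over 296 bases of the genome (chr16:29738743-29739038, plus strand), so it crosses an exon junction.
Hes1 probe: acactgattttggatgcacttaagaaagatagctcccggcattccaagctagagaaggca

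Hes1 ranged from -0.67 to 1.02 on TSP arrays and from -0.63 to 1.41 on CSP arrays, with medians of -0.28 and -0.04. TMP arrays gave 1.35, 1.00 and 0.17 and CMP arrays 1.14, 0.03 and 0.13. The highest side population values stood on slide 3, with 1.41 on CSP 3, 1.02 on TSP 3 and 0.94 on TSP 4, and the highest main population values on slide 2. The difference of CSP from CMP was -0.33, with a 95% interval of -1.28 to 0.62 and an adjusted p of 0.684 (limma). An increase of the size seen for Hey1 or Heyl lay outside this interval.

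**Figure D2:**
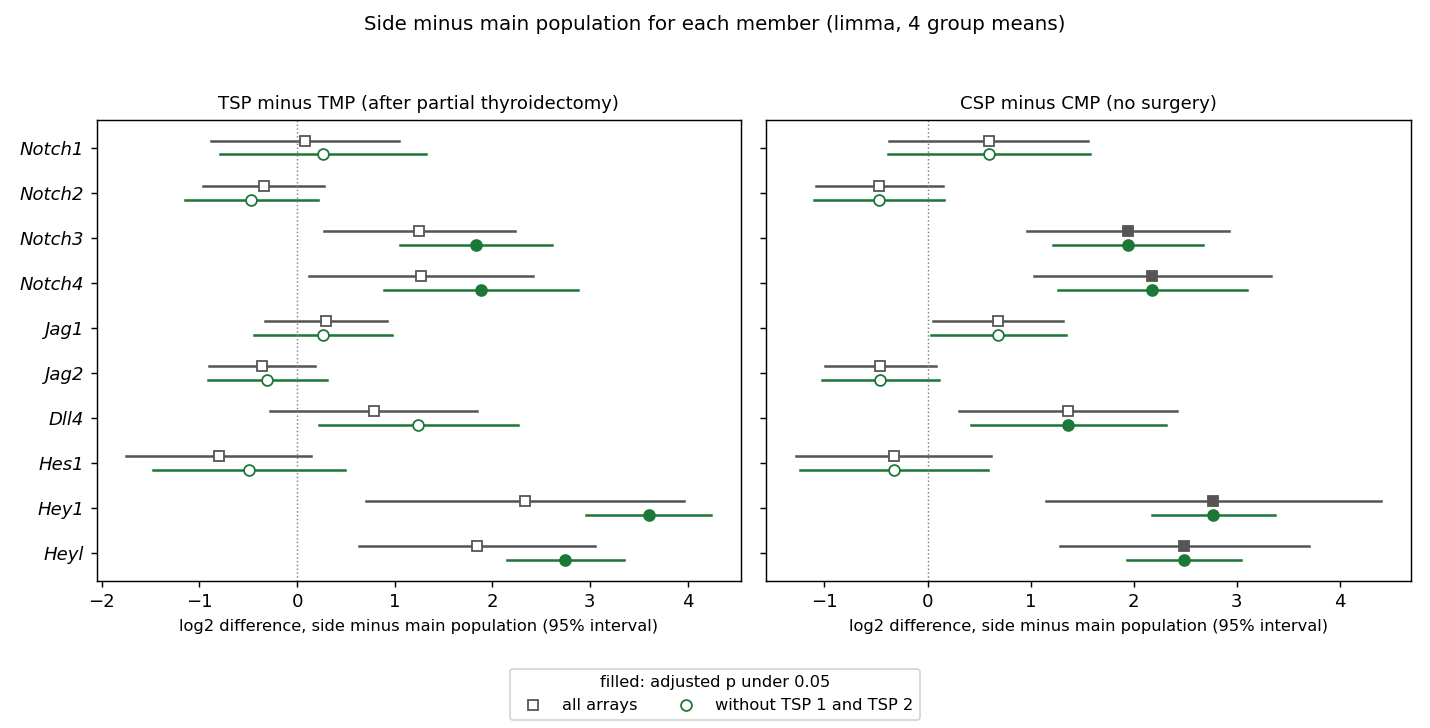
Log2 difference of side minus main population (horizontal axis) with its 95% interval for each member, after partial thyroidectomy (TSP minus TMP, left) and without surgery (CSP minus CMP, right); squares are all arrays, circles leave out TSP 1 and TSP 2, and filled symbols have an adjusted p under 0.05. Notch3, Notch4, Hey1 and Heyl are filled in both panels once those 2 arrays are left out.

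The comparison of TSP with TMP asks the same question after partial thyroidectomy. With all arrays, no member and none of the 20455 genes passed the test (0% called; 2797 genes had an unadjusted p under 0.05, limma). Without TSP 1 and TSP 2, the receptors and targets called in unoperated thyroids were called here too: Notch3 (3.57-fold), Notch4 (3.69-fold), Hey1 (12.2-fold) and Heyl (6.72-fold) were higher on TSP 3 to TSP 6. That is 4 of 10 members higher and none lower, where 7.67% of genes were called higher, 7.01% lower and 14.7% in either direction. Hey1 and Heyl also passed with TSP 1 alone left out, at differences of 2.90 and 2.21 (2.51% of genes called), and with TSP 2 alone left out, at 2.78 and 2.20 (3%). TSP 3 to TSP 6 averaged 2.71 ± 0.41 for Hey1 (SD, n = 4) and TMP -0.90 ± 0.20 (n = 3), a difference of 3.60 ± 0.30 (SE) with an adjusted p of 4.96e-07 (limma). For Heyl the means were 3.34 ± 0.40 and 0.59 ± 0.41, and the difference of 2.75 had an adjusted p of 4.13e-06.

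Notch3 differed by 1.83 with an adjusted p of 0.00217 and Notch4 by 1.88 with 0.0103, also without TSP 1 and TSP 2 (limma). Dll4 had a difference of 1.24 with an adjusted p of 0.102. All TSP 3 to TSP 6 values stood above all TMP values for 5 members (Notch3, Notch4, Dll4, Hey1 and Heyl), as they did for 12.6% of genes. Those of Notch2 stood below by its brightest probe (-0.02 to 0.52 against 0.72 to 0.92), as did 11.2% of genes, with an adjusted p of 0.408. Its other 2 probes overlapped between TSP 3 to TSP 6 and TMP. They ranged from 0.13 to 0.78 against 0.18 to 0.39 and from 0.07 to 2.06 against 1.26 to 1.67. Their differences were of opposite sign, 0.16 and -0.54. The differences within slide 5, which holds TSP 5 and TSP 6 beside TMP 3, were 3.87 for Hey1, 1.98 for Heyl, 1.79 for Notch3, 1.96 for Notch4 and 0.81 for Dll4. On the same arrays as the folds above, the second Heyl probe differed by 1.99 with an adjusted p over all probes of 0.00124. With all arrays the differences kept their sign but were smaller, 2.33 for Hey1, 1.84 for Heyl, 1.25 for Notch3 and 1.27 for Notch4, with adjusted p values of 0.252 to 0.318. Notch3 alone passed with all arrays when slide was a block (1.60, adjusted p 0.0298), where 1.1% of genes were called. This comparison shares no array with CSP minus CMP but takes the same estimate of the spread.

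The comparison of TSP with CSP asks what partial thyroidectomy changed in the side population. No member and no gene passed with all arrays (0% called; 1860 genes had an unadjusted p under 0.05) or without TSP 1 and TSP 2 (0% called; 701 genes). With slide as a block 898 genes were called (4.39%; 349 higher and 549 lower) with all arrays and 18 (0.088%) without TSP 1 and TSP 2, and again no member. Hey1 was the member with the clearest shift once those arrays were left out: TSP 3 to TSP 6 had 2.34 to 3.16, all above the CSP range of 1.14 to 2.12. Its difference was 0.95 (1.93-fold), with a 95% interval of 0.40 to 1.49, an unadjusted p of 0.00182 and an adjusted p of 0.9998 (limma). Groups did not overlap in this direction for 0.341% of 20241 genes. Hey1 was picked from the members by this shift, so the gap is no separate evidence. The slide block gave 0.96 (adjusted p 0.254) and slide 3 alone 0.63. With all arrays the Hey1 difference was -0.32, of the opposite sign, and TSP 1 and TSP 2 had the lowest values of the group.

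The other 9 members overlapped between TSP 3 to TSP 6 and CSP, with differences from -0.54 (Notch1) to 0.24 (Hes1). The difference between the 2 side-minus-main differences, tested as an interaction, was called for no member and no gene (0% called; 220 genes had an unadjusted p under 0.05 with all arrays and 121 without TSP 1 and TSP 2, limma). For Hey1 it was 0.83 without TSP 1 and TSP 2, with a 95% interval of -0.04 to 1.70 and an adjusted p of 0.9998. The larger fold of Hey1 after surgery is therefore not shown to differ from that without surgery.

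The comparison of TMP with CMP asks what surgery changed in the main population. All 10 members overlapped between the groups (2.92% of genes did not), no gene passed the test (0% called; 25 genes had an unadjusted p under 0.05, limma), and the member differences ran from -0.22 (Notch1) to 0.41 (Hes1). Same-numbered TMP and CMP arrays lay on the same slide and varied together. With this pairing as a block, fitted on the main population arrays alone, 6 genes passed (0.0293%; 1218 had an unadjusted p under 0.05) and no member did. Notch3 was higher in TMP in all 3 pairs, by 0.46, 0.29 and 0.10, and so was Hes1, by 0.21, 0.97 and 0.04, with adjusted p of 0.890 and 0.834 in that fit (limma). The other members changed sign between pairs. How many of all genes kept their sign in all 3 pairs was not counted, so no shift after surgery is read from these values. The interval for Hey1 without TSP 1 and TSP 2 was -0.57 to 0.80.

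Of 53 further Notch pathway genes 51 were on the array and 47 were tested. In CSP against CMP 4 of the 47 were higher, 2 lower and 41 not called, a share near the 14.9% of all genes, and their median difference was 0.12. Egfl7, a secreted endothelial protein that binds Notch receptors and is also on the endothelial marker list, was 9.27-fold higher (log2 difference 3.21, adjusted p 0.00921, limma), from 0.32 to 2.23 on CSP arrays against -2.38 to -1.34 on CMP arrays. Mfng, a fringe glycosyltransferase that modifies Notch receptors, was 5.97-fold higher (2.58, adjusted p 0.0170). The coactivators Maml1 and Snw1 were 1.89-fold and 1.78-fold higher (adjusted p 0.0353 and 0.0442). Lower were Dtx4, a ubiquitin ligase of the Deltex family (-1.59, adjusted p 0.0252), and Kat2b, an acetyltransferase that acts with the transcription complex and is named Pcaf on the array (-1.38, adjusted p 0.0235). The call of Kat2b rests on its brightest probe: the mean over its probes gave -0.31 with an adjusted p of 0.498 (limma).

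**Figure D3:**
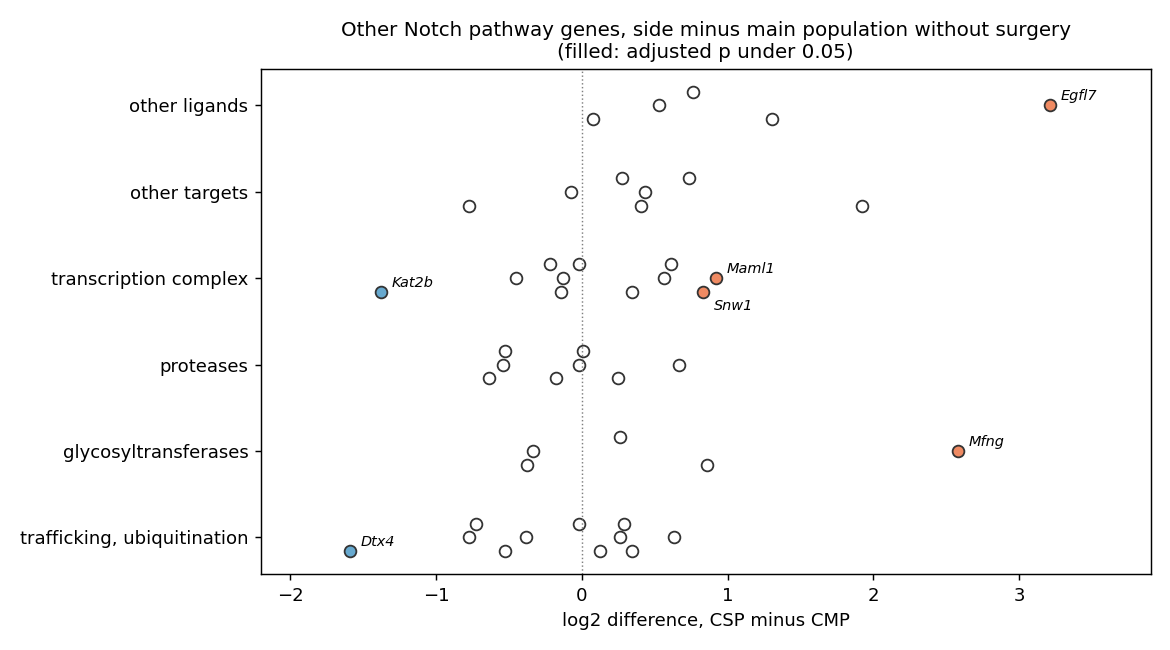
Log2 difference of CSP minus CMP (horizontal axis) of the 47 tested pathway genes other than the members, by role (vertical axis, offsets within a role only separate points); filled points have an adjusted p under 0.05. Egfl7 at 3.21 and Mfng at 2.58 lie farthest to the right and Dtx4 at -1.59 farthest to the left, and no protease is filled.

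By role, 1 of 5 other ligands, 0 of 7 other targets, 3 of 11 transcription genes, 0 of 8 proteases, 1 of 5 glycosyltransferases and 1 of 11 trafficking genes were called. Rbpj itself (Rbpsuh on the array) had a difference of 0.61 with an adjusted p of 0.101, Dll1 0.53 with 0.344, Hes5 0.43 with 0.410, Hey2 0.73 with 0.384 and Lfng 0.86 with 0.273 (limma). Nrarp, a feedback inhibitor that Notch switches on, stood higher on every CSP array (1.87 to 3.51) than on any CMP array (0.25 to 0.81). Its difference of 1.92 had an adjusted p of 0.0513 with all arrays and of 0.00381 without TSP 1 and TSP 2. Without these 2 arrays the TSP minus TMP comparison called 3 pathway genes higher, Nrarp (6.34-fold), Egfl7 (6.24-fold) and Mfng (5.08-fold), and 2 lower, Dtx4 (-1.53) and Hes6 (-1.09), which is 5 of 47 where 14.7% of all genes were called. None of the 47 passed in TSP minus CSP or in TMP minus CMP, with or without TSP 1 and TSP 2. With slide as a block Snw1 (-0.66) and Kat2b (1.02) passed in TSP minus CSP, 2 of 47 where 4.39% of genes were called.

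Markers of several cell types also differed between CSP and CMP, where 7.61% of all genes tested were called higher and 7.25% lower. All 13 tested endothelial genes were higher in CSP than in CMP, among them Vwf (5.12), Cdh5 (4.25) and Kdr (2.42) as log2 differences, all with adjusted p under 0.05 (limma). The endothelial mean per array was -1.84 and -1.82 on TSP 1 and TSP 2, 0.92 to 2.11 on TSP 3 to TSP 6 and 0.89 to 2.56 on CSP arrays, against -1.89 to -1.35 on TMP arrays and -2.02 to -1.41 on CMP arrays. Of the 12 smooth muscle and pericyte genes 3 were higher in CSP, namely Pdgfrb (4.89), Cspg4 (3.79) and Kcnj8 (2.26), Cnn1 was lower (-1.28) and 8 were not called. The mean of the 12 was -1.52 and -1.56 on TSP 1 and TSP 2, 0.12 to 0.82 on TSP 3 to TSP 6 and -0.31 to 0.35 on CSP arrays, against -1.46 to -0.96 on TMP arrays and -1.66 to -1.05 on CMP arrays. Fibroblast genes were higher in CSP for 7 of 9, and thyroid follicular genes lower for 7 of 8. Epithelial genes were lower for 8 of 8. Of the 8 macrophage and leukocyte genes 1 was higher, Cd14 (2.02), and 2 were lower, Lyzs (-1.35) and Cd68 (-1.19). In TSP minus TMP without TSP 1 and TSP 2, 1 of these 8 was higher and 4 were lower, where 7.67% of genes were called higher and 7.01% lower. In CSP minus CMP 1 of 4 C cell genes was higher, and 0 of 5 lymphocyte genes were called. No endothelial or pericyte marker was below background on every array of any group. The part of these cell types in the Notch differences was not tested.

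**Figure D4:**
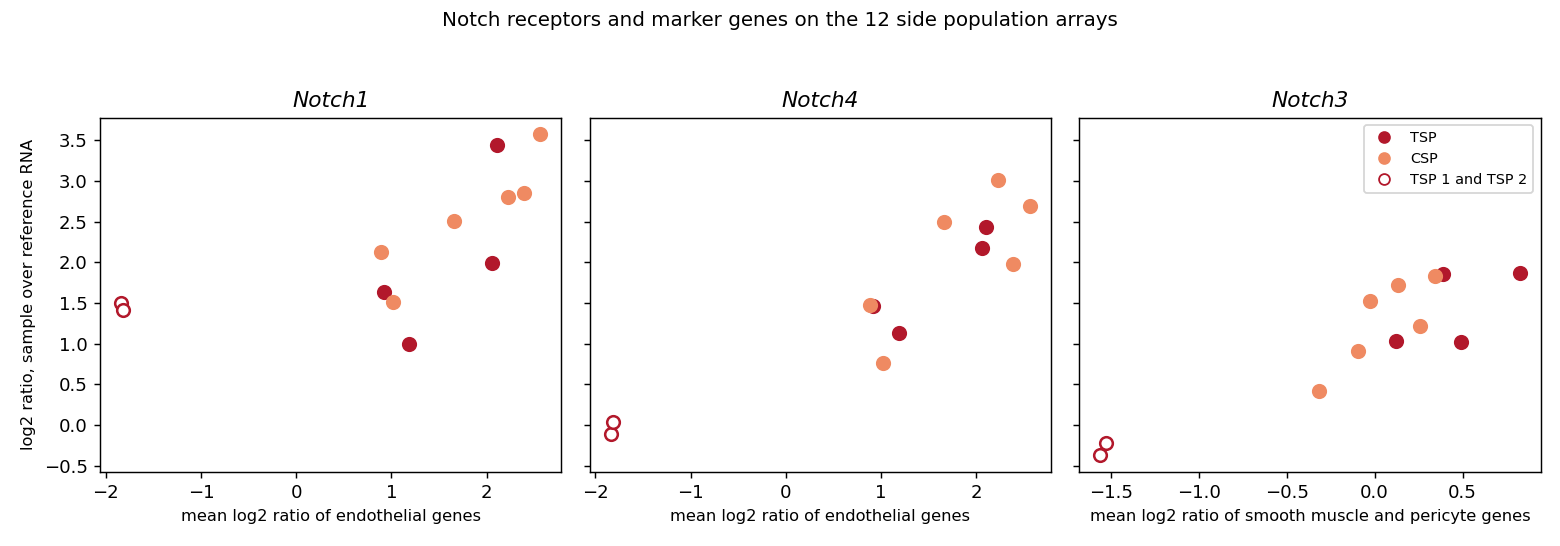
Log2 ratio of Notch1, Notch4 and Notch3 (vertical axis) against the mean log2 ratio of endothelial genes (left and middle panels) or of smooth muscle and pericyte genes (right panel) on the 12 side population arrays; open circles are TSP 1 and TSP 2. Over the filled points the Pearson r is 0.804 for Notch1, 0.813 for Notch4 and 0.661 for Notch3, none with an adjusted p under 0.05.

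Within the 10 side population arrays without TSP 1 and TSP 2, each member was set against 4 marker means. Against the endothelial mean Notch1 gave a Pearson r of 0.804 and a Spearman rho of 0.770, and Notch4 gave 0.813 and 0.709. The permutation p values of the 2 Pearson r were 0.00754 and 0.00708, two-sided. Adjusted over the 40 relations of 10 members with 4 marker lists, both Pearson p values were 0.101 and both Spearman p values 0.326, so neither relation passed. Without the 2 arrays farthest from the median of the endothelial mean r was 0.857 and 0.820. Notch3 gave r -0.407 (rho -0.333) with the endothelial mean and 0.661 (rho 0.685) with the smooth muscle and pericyte mean, with permutation p of 0.242 and 0.0363 and adjusted p of 0.593 and 0.290; the second r was 0.267 without the 2 farthest arrays. Dll4 gave r -0.817 (rho -0.661) with the fibroblast mean (permutation p 0.00388, adjusted 0.101), and -0.485 without the 2 farthest arrays. Hey1 and Heyl gave r 0.036 and -0.421 with the endothelial mean, and 0.566 and 0.215 with the smooth muscle and pericyte mean. With that second mean Notch1 and Notch4 gave r -0.64 and -0.662 (permutation p 0.0454 and 0.0356, adjusted 0.303 and 0.29). No relation of the 40 had an adjusted p under 0.05. A slide holds at most 4 of these arrays, too few for a value within slides, and the arrays also share slide and detection rate.

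The genes whose values over all 18 arrays were most like those of a member were sought among 19986 genes by Pearson r, given as a description because the arrays share the split into 2 populations. For Notch4 they were Eltd1, BC019530 and Kdr, each with r 0.964, of which Eltd1 and Kdr are endothelial receptors. For Notch3 they were Ppm1l (0.964), Dmn (0.957) and Thrb (0.956), where Dmn is an array name of the intermediate filament gene synemin. Heyl was most like Ntrk2 (0.988), Fkhl18 (0.988) and Edg3 (0.986). Igfbp7 (0.969) was the named gene most like Hey1, and 6030408C04Rik (0.963) the gene most like Dll4. Notch1 was most like Plekhg5 (0.870), with Ephb4 (0.831) also among its closest, the venous endothelial ephrin receptor. Over the 10 side population arrays without TSP 1 and TSP 2 the closest to Notch1 were Ptpn14 (0.951), Tmem63b (0.945) and Ephb4 (0.941). For Notch4 they were 5730403M16Rik (0.942), Usf2 (0.932) and Eng (0.929), an endothelial coreceptor. Values of this size were not particular to these receptors, as Hes1 reached 0.9715 with Zbtb11.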

How the data were processed

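RNA of 18 sorted cell samples was measured on two-colour Agilent arrays without a dye swap. The scanner files hold the intensity of each channel and a log10 ratio (Cy5 over Cy3), made by the authors with Agilent Feature Extraction (version 8.5.1.1 per the submitters' processing notes, 9.5.1.1 per the file headers). The deposited value table holds log2 ratios by the authors, whose normalization is not given in the sources used here; it served as an alternative, and 8 of its 18 columns matched another array of their group best. Arrays are numbered by scanner file.

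Raw mean intensity was background corrected (limma 3.58.1, normexp, offset 50) and loess normalized within arrays, with control spots at weight 0. Spots flagged as outliers were left out and spots of a probe averaged. A gene name was represented by the brightest of its probes that were well above background on at least 3 arrays (20455 genes). A limma model with 4 group means gave each contrast; p values were adjusted by Benjamini-Hochberg over all genes, or over all 29803 probes for further probes, with 0.05 as the threshold. The script was tested on simulated data. Software was R 4.3.3 with the data.table package (version 1.17.8), and Python 3.11.15 with matplotlib 3.10.9.

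The members, the pathway list and the marker lists were chosen with earlier results of these data known. Named genes are the members, up to 5 called pathway genes per direction, Rbpj, Dll1, Hes5, Hey2 and Lfng. The 3 genes most like each member were sought, but the text names only part of them, and none for Notch2, Jag1 or Jag2. Nrarp, Hes6 and the markers named were chosen for their values or their lists.

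Same-numbered TMP and CMP arrays share a slide, and their deviations from the group means correlated at 0.666 to 0.808, so they were treated as pairs. A shared slide and a pairing of samples cannot be told apart here. For the other contrasts not every pair correlated above 0.1 and the numbers were taken as names only. Correlations used 100000 permutations. Probe positions are those of the file headers (mm7); no genome was used.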

Additional observations from a re-analysis of the deposited data

How the results depend on the processing

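Among 13 alternatives for CSP minus CMP, Heyl, Notch3 and Notch4 kept their calls under 12 and Hey1 under 11, and no call reversed. Of the called pathway genes, Egfl7 and Mfng kept theirs under 12, Dtx4 under 11, Maml1 under 10, Kat2b under 9 and Snw1 under 8. Scaling between arrays after loess left 0 members and 0 pathway genes called; the 4 differences were then 1.79 to 2.54 with adjusted p of 0.115 to 0.374. That setting called 447 genes in all, 177 of them higher, against 3039 otherwise. With slide as a block 4 members and 16 pathway genes (11 higher) were called in CSP minus CMP, beside 5758 genes (28.1%). That block called 1 member in TSP minus TMP, beside 224 genes (1.1%), and 2 pathway genes, Snw1 and Kat2b, in TSP minus CSP, beside 898 genes (4.39%). With slide as a block and without TSP 1 and TSP 2, added after seeing the data, 10 pathway genes were called in CSP minus CMP, beside 21.1% of genes, and 7 pathway genes and 4 members in TSP minus TMP, beside 15.7%. Without TSP 1 and TSP 2 alone, TSP minus TMP called 4 members and 5 pathway genes, beside 14.7% of genes. Leaving out each array in turn gave 0 to 5 members and 0 to 8 pathway genes in CSP minus CMP. In TSP minus TMP it gave 0 to 2 members, with 2.51% of genes called without TSP 1 and 3% without TSP 2. Without CMP 1, CMP 2 or CMP 3 the member counts in CSP minus CMP were 1, 0 and 2, beside 1150, 572 and 2100 genes. Adjusted p of the lost member calls were 0.0521 to 0.0953. With TSP 1 and TSP 2 also left out, the ranges were 4 to 5 and 5 to 10 in CSP minus CMP and 3 to 5 and 3 to 6 in TSP minus TMP. The share of all genes called varied between fits and is not given for each, so these ranges cannot be set against it. The cause of these changes was not tested.

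The replicate block gave 3 members and 2002 genes in CSP minus CMP; Hey1 had 2.12 with an adjusted p of 0.0952, and no other member call was lost. Same-numbered CSP and CMP arrays correlated at -0.263 to 0.133, TSP and TMP at -0.239 to 0.209 and TSP and CSP at -0.0523 to 0.463. TSP and CSP arrays 1 to 4 also lay on the same slide as their same-numbered array, but not every pair correlated above 0.1, so these numbers were not taken as pairs. The pairs with TSP 1 and TSP 2 gave 0.0329 and -0.0523, and those with TSP 3 to TSP 6 gave 0.328, 0.219, 0.463 and 0.0558. For TSP and CSP this check thus rests in part on the 2 arrays that went against their labels. In TMP and CMP the block, also fitted on the main population arrays alone as added after seeing the data, changed no member call. Each main population group had 3 arrays. Dll4 was short of well above background in part of the arrays of every group and Jag2 on 1 TSP and 2 CSP arrays.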
